A study of Canis lupus familiaris with 2 samples.

Results

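Immediate early genes and genes of the stress that cells undergo when a tissue is taken apart were followed as 1 list in single cells of the dog neuroretina. The list held 40 genes, named from knowledge of their function, and 36 of them were named in the counts of both dogs. Its genes were chosen with earlier results of these data known. Counts of them beside the share of all genes are therefore not an independent test of the list. *JUN*, *KLF2*, *CEBPD* and *SOCS3* were named in N350 only, so they entered no sum and no test. Neuroretina punches came from 2 normal male dogs of 40 weeks, N350 and N354, neither of which carried a labelled mutation or treatment. Both retinas were treated with trypsin and a neural tissue dissociation kit before droplets were loaded for 10x 3′ libraries. Each dog gave 1 library, and every cell had gone through dissociation, so the levels below have no undissociated sample beside them. Nothing in them separates transcripts present in the living retina from transcripts made during handling.

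Immediate early genes are transcribed within minutes of a stimulus without new protein synthesis, through factors such as SRF and CREB that already sit in the cell. Their first products are mostly transcription factors, the AP-1 subunits and EGR1 among them. Other immediate early products, ZFP36 and DUSP1 among them, shut the response down by destroying short-lived transcripts or by inactivating the kinases that started it. Enzymatic dissociation at warm temperature is a well known trigger. Müller glia, the radial glia that span the retina, are known to switch on these genes after injury. Heat shock chaperones are a separate arm, which refolds damaged proteins, and several of them are also abundant in resting neurons.

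The deposited counts held 8900 cells of N350 with 24030707 UMIs and 4392 cells of N354 with 9711202 UMIs. Cells were assigned to a class from raw UMIs of marker genes that exclude the list, which gave 5530 and 2973 rods, 884 and 442 Müller glia, 337 and 197 cones, 306 and 271 bipolar cells, 148 and 23 amacrine cells and 106 and 59 astrocytes in N350 and N354, respectively. These 6 classes had at least 20 cells in both dogs and were tested. Only 6 cell barcodes occurred in both dogs. The Müller glia markers stood at 118 and 159.7 UMIs per 10000 in Müller glia and at 6.14 and 2.56 in rods. The 2 sets of counts list different genes, so a difference between the dogs in a gene's level cannot be told apart from a difference between their annotations, and comparisons were made between classes within each dog.

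Among the 6 tested classes, astrocytes and Müller glia carried the most of the list and the neurons the least, in both dogs. Levels are UMIs per 10000 UMIs of all genes in the class. The 36 genes summed to 424 in N350 and 102 in N354 in Müller glia, and to 476 in N350 and 128 in N354 in astrocytes. Rods held 132 in N350 and 62.7 in N354. The other neurons lay below rods, with 86.8 and 57.2 in cones, 85.97 and 44.5 in bipolar cells and 90.1 and 48.7 in amacrine cells of N350 and N354. The sum in Müller glia over that in rods was 3.21 in N350 and 1.63 in N354, a mean log2 ratio of 1.19 ± 0.69 (SD, n = 2 dogs). The direction was the same in both dogs and the ratio was larger in N350. With a pair of dogs no permutation test of this ratio is possible that could pass the threshold.

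**Figure D1:**
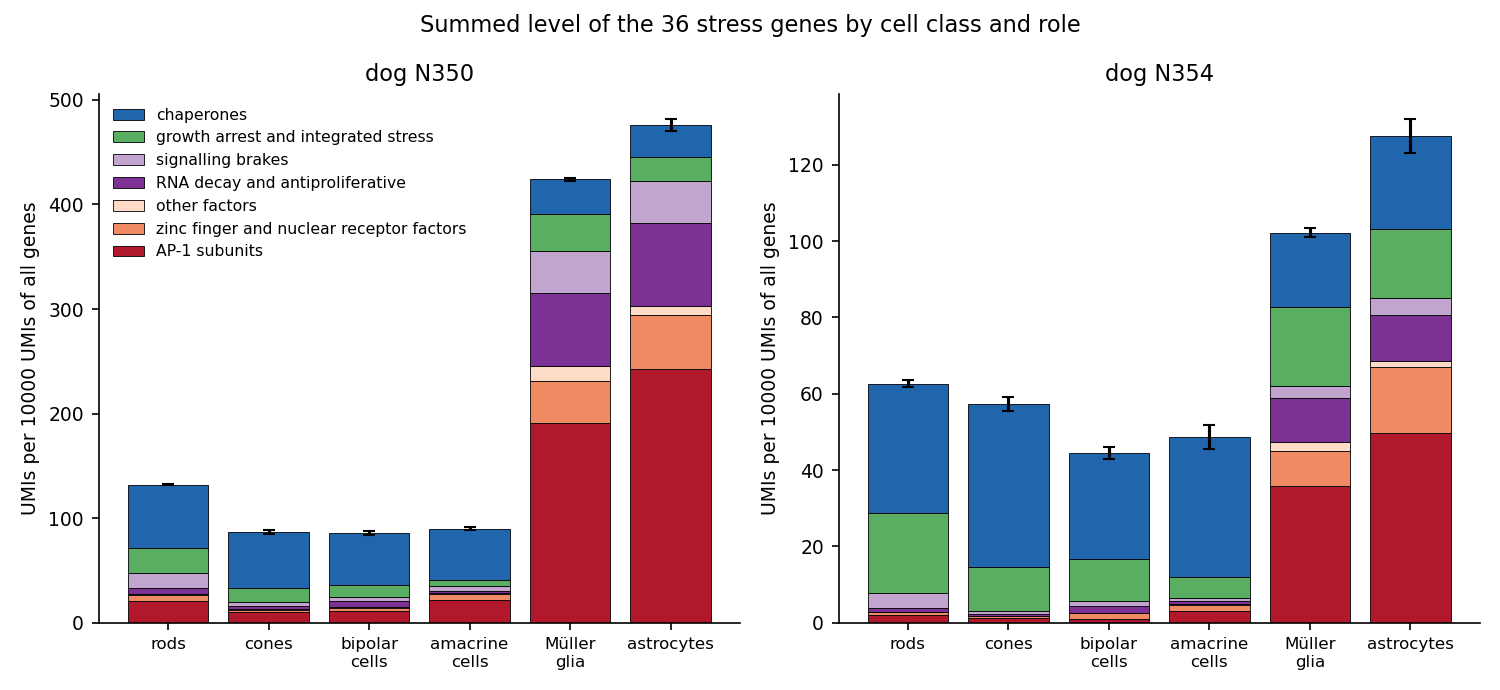
Summed level of the 36 genes, in UMIs per 10000 UMIs of all genes, by gated cell class and stacked by role, with N350 and N354 in panels that have different vertical axes. Error bars are exact Poisson 95% intervals of the sum, and Müller glia at 424 and 102 and astrocytes at 476 and 128 stand above rods at 132 and 62.7.

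The sum was made of different genes in glia and in neurons. Chaperones made up 45.6% of it in rods of N350 and 54.03% in rods of N354. In cones they made up 61.97% and 74.3%. In Müller glia their share was only 7.72% and 19.02%, and the AP-1 subunits took 45.1% and 35.2%. In rods the AP-1 share was 16.01% and 3.21%. A single gene, *HSP90AA1*, held 34.2% and 23.3% of the rod sum, and *FOS* held 26.8% and 31.02% of the Müller glia sum. Without the chaperones the sum was 391 in Müller glia against 71.9 in rods of N350, and 82.7 against 28.8 in N354.

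Gene by gene, 23 of the 36 had a higher level in Müller glia than in rods in both dogs, 11 were lower in both, and *KLF4* and *HSPA5* did not give 1 direction. The 95% counting interval of the ratio lay above 1 in both dogs for 21 genes and below 1 in both for 9. These intervals cover counting error only. No share over all genes was computed for these counts of directions and intervals. Counts summed per dog and class were then compared with edgeR's quasi-likelihood test over all 11865 genes tested. Without a term for the dog, 6 of the 36 genes were higher in Müller glia and 1 was lower, against 8.06% and 5.18% of all genes tested. The 6 were *FOSB*, *KLF9*, *BTG2*, *MCL1*, *GADD45B* and *PPP1R15A*, and the 1 was *GADD45A*. With the dog as a block, 24 of the 36 were higher and 8 were lower, against 27.7% and 28.5% of all genes. The dogs pair the sums, since each class was taken from the same animals. All further tests are named with or without this block. Against the mean of the neuron classes, 14 genes were higher and 2 lower without the block (11.9% and 3.41% of all genes), and 26 and 6 with it (27.7% and 22.9%).

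**Figure D2:**
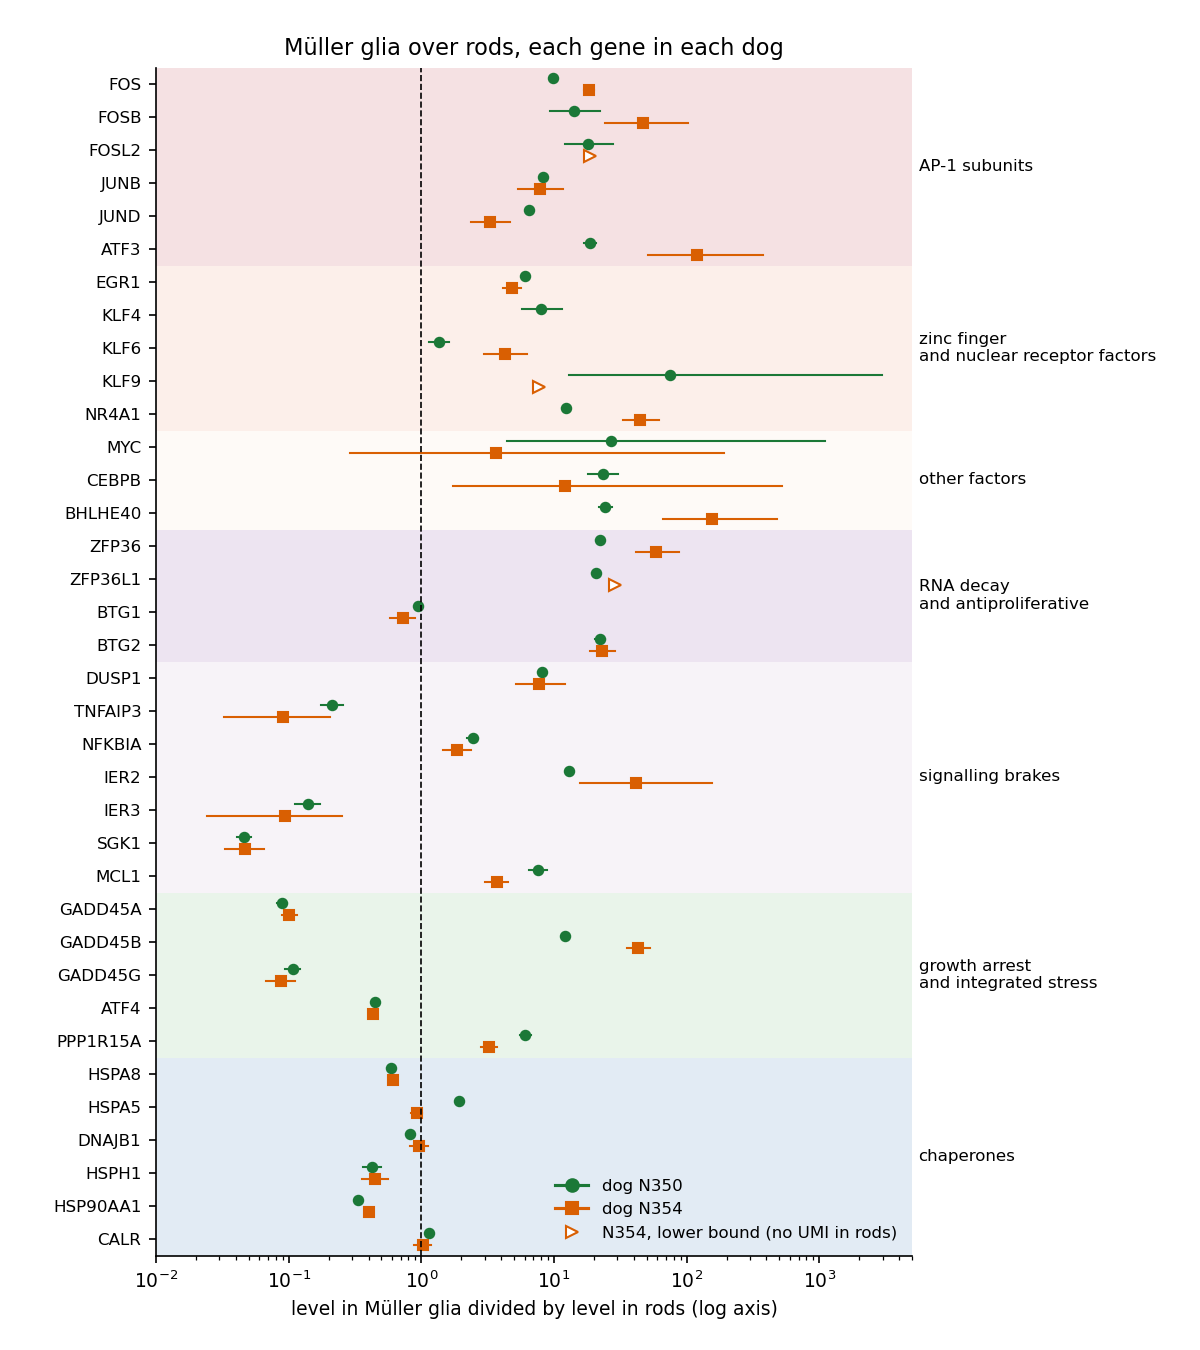
Level in Müller glia over that in rods for each of the 36 genes, on a log axis, in N350 and N354, grouped by role. Points are ratios of UMIs per 10000 with exact 95% counting intervals, open triangles are lower bounds where rods had no UMI, and 23 genes lie above 1 in both dogs while 11 lie below.

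Fitted log2 differences depend on the scaling. The median log2 difference of all genes tested, Müller glia over rods, was -0.16 with TMM scaling and -0.55 when the UMI totals were used alone, so fitted values here are 0.39 higher than on the scale of the levels. With UMI totals and the block, *HSPA5* was no longer called higher and *HSPA8* was called lower. *BTG1* and *DNAJB1* changed sign and were called under neither scaling. On that scale, 25 of the 36 and 4409 of all 11865 genes tested had a log2 difference above 0.

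All 6 AP-1 subunits were higher in Müller glia than in rods with the dog as a block, and 1 of the 6 without it. Over all genes tested these shares were 27.7% and 8.06%. AP-1 is the dimer of FOS and JUN family proteins that turns an incoming signal into transcription. *FOS*, its classical inducible subunit, stood at 113 in N350 and 31.7 in N354 in Müller glia and at 11.5 in N350 and 1.73 in N354 in rods. The Müller glia level of *FOS* was 9.85 (95% interval 9.62 to 10.1) times the rod level in N350 and 18.3 (95% interval 16.8 to 19.9) times in N354, and the counting intervals of the 2 classes did not overlap in either dog (edgeR, dog as a block, log2 difference 4.18 ± 0.26 (SE), adjusted p = 4.05e-09). Without the block its adjusted p was 0.136. *FOS* was the most abundant of the 36 genes in Müller glia in both dogs.

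The JUN partners showed a Müller glia excess of similar direction but very different levels between the dogs. *JUNB*, which often restrains JUN, was at 34.8 in N350 and 0.71 in N354 in Müller glia and at 4.18 in N350 and 0.0907 in N354 in rods (edgeR, block, 3.44 ± 0.28, adjusted p = 2.91e-08). *JUND*, the subunit expressed most steadily in resting cells, was at 30.98 in N350 and 0.487 in N354 in Müller glia and at 4.81 in N350 and 0.147 in N354 in rods (2.74 ± 0.27, adjusted p = 2.54e-07). In N354 the *JUND* ratio of 3.303 (95% interval 2.39 to 4.63) was the smallest among the 6 subunits, on 142 UMIs in Müller glia. *ATF3*, a stress-induced factor of the same family, went from 0.577 in N350 and 0.0142 in N354 in rods to 10.8 in N350 and 1.71 in N354 in Müller glia (5.24 ± 0.37, adjusted p = 9.26e-09). *FOSB* and *FOSL2* were scarce. *FOSB* was at 0.492 and 1.19 in Müller glia against 0.0349 and 0.0255 in rods, and it passed with the block and without it (adjusted p = 1.13e-07 and 0.0296). *FOSL2* had no UMI in the rods of N354 and was at least 18.5-fold higher in the Müller glia of that dog, taking 3 UMIs over the class as the limit of a count of 0.

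The zinc finger and nuclear receptor factors were higher in Müller glia in 5 of 5 cases with the block and in 1 of 5 without it. Of all genes tested, 27.7% were higher with the block and 8.06% without it. *EGR1*, an early growth response factor, was at 22.8 in N350 and 3.01 in N354 in Müller glia and at 3.74 in N350 and 0.623 in N354 in rods, ratios of 6.08 in N350 and 4.83 in N354 (edgeR, block, 2.88 ± 0.23, adjusted p = 2.06e-08). *NR4A1*, an orphan nuclear receptor induced by calcium and growth factor signals, had larger ratios of 12.3 in N350 and 44.5 in N354, from 1.33 and 0.125 in rods to 16.4 and 5.55 in Müller glia (4.76 ± 0.48, adjusted p = 3.58e-07). Among the 6 tested classes *NR4A1* was highest in Müller glia in both dogs, and astrocytes held 5.598 and 1.09. *KLF6* was low in both classes, at 0.475 and 0.483 in Müller glia and 0.348 and 0.113 in rods. Its ratios were 1.36 in N350 and 4.26 in N354, and its high class was the astrocytes, described below. *KLF9* had 75 and 19 UMIs in all Müller glia of N350 and N354. *KLF4* had no UMI in any of the 6 tested classes of N354, so its call rests on N350, where it was at 0.456 in Müller glia and 0.0568 in rods.

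*BHLHE40*, *CEBPB* and *MYC*, transcription factors of other families, were all higher in Müller glia with the block (27.7% of all genes) and none was without it (8.06%). *BHLHE40*, a clock-linked repressor, was at 11.8 in N350 and 2.201 in N354 in Müller glia against 0.485 in N350 and 0.0142 in N354 in rods, and Müller glia were its highest tested class in both dogs (edgeR, block, 5.62 ± 0.38, adjusted p = 6.87e-09). *CEBPB*, a factor of inflammatory and acute phase genes, was at 2.17 in Müller glia of N350 but had 10 UMIs in all Müller glia of N354 and 1 in its rods. *MYC*, a driver of growth, had at most 27 UMIs in a class and is given by its counts only, 27 and 3 UMIs in Müller glia and 1 and 1 in rods. The group thus rested on *BHLHE40* for its level.

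Of the 4 genes that end the response by RNA decay or by slowing division, 3 were higher in Müller glia with the block and 1 without it. The shares over all genes tested were 27.7% and 8.06%. *ZFP36* encodes tristetraprolin, which binds AU-rich transcripts and sends them to decay. It was at 28.9 in N350 and 5.17 in N354 in Müller glia and at 1.31 in N350 and 0.0878 in N354 in rods, ratios of 22.1 in N350 and 58.9 in N354 (edgeR, block, 5.46 ± 0.31, adjusted p = 2.62e-09). *ZFP36L1*, its relative, was at 21.1 in N350 and 0.247 in N354 in Müller glia. Rods held 1.02 of it in N350 and no UMI in N354, where the excess was at least 29.03-fold. *BTG2*, an antiproliferative gene that recruits the deadenylase complex, was at 17.5 and 5.64 in Müller glia and 0.782 and 0.244 in rods (block, 4.94 ± 0.25, adjusted p = 2.57e-09) and also passed without the block (adjusted p = 0.0261). Its paralog *BTG1* did not pass in either fit. *BTG1* was at 2.82 and 0.487 in Müller glia and 2.97 and 0.672 in rods, and was highest in bipolar cells among the tested classes, at 5.01 and 1.68. Per 10000 UMIs, 3 of the 4 genes therefore separated the 2 classes in both dogs and *BTG1* did not.

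The group listed as signalling brakes is mixed, since *IER2*, *IER3*, *MCL1* and *SGK1* are described below by roles other than that of a brake. It split, with 4 of 7 higher and 3 of 7 lower in Müller glia with the block (27.7% and 28.5% of all genes). Without the block 1 was higher and 0 lower (8.06% and 5.18%). *DUSP1*, the phosphatase that switches off MAP kinases, was at 13.04 in N350 and 0.593 in N354 in Müller glia and at 1.61 in N350 and 0.0765 in N354 in rods (edgeR, block, 3.41 ± 0.25, adjusted p = 1.29e-08). *IER2*, an immediate early nuclear protein, was at 22.1 and 0.47 against 1.696 and 0.0113 (4.36 ± 0.35, adjusted p = 2.73e-08). *NFKBIA*, the inhibitor of NF-κB, and *MCL1*, a survival factor, were also higher, with *MCL1* at 1.97 and 1.45 against 0.262 and 0.394 and *NFKBIA* at 1.89 and 0.583 against 0.775 and 0.315. *SGK1*, a kinase induced by glucocorticoids and osmotic change, went the other way. It stood at 8.25 in N350 and 2.85 in N354 in rods and at 0.38 in N350 and 0.134 in N354 in Müller glia, and rods were its highest tested class in both dogs (block, -4.03 ± 0.24, adjusted p = 3.14e-09, without it 0.0763). *IER3*, a regulator of survival under stress, and *TNFAIP3*, the A20 brake on NF-κB, were lower in Müller glia as well, with log2 differences of -2.52 and -2.15 (adjusted p = 1.14e-05 and 5.55e-05, block). *IER3* was at 0.967 and 0.147 in rods and 0.135 and 0.0137 in Müller glia, and *TNFAIP3* at 0.856 and 0.227 in rods and 0.182 and 0.0206 in Müller glia. Summed over the 7 genes the ratio was 2.76 in N350 and 0.814 in N354, so the sum changed direction between the dogs. The largest members of the sum were *IER2* in Müller glia of N350, *MCL1* in Müller glia of N354 and *SGK1* in rods of both dogs.

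The 3 GADD45 genes, which encode small proteins that couple DNA damage and stress to growth arrest, did not move together. *GADD45B* was higher in Müller glia, at 25.6 in N350 and 13.2 in N354 against 2.09 in N350 and 0.306 in N354 in rods (edgeR, block, 4.77 ± 0.43, adjusted p = 9.93e-08), and it passed without the block too (adjusted p = 0.041). *GADD45A* went the other way. Rods held 8.29 in N350 and 8.69 in N354, cones 5.698 and 5.52 and bipolar cells 3.43 and 4.17, while Müller glia held 0.736 and 0.881 (-2.95 ± 0.22, adjusted p = 1.14e-08, and 0.00514 without the block). The order rods, cones, bipolar cells, Müller glia was the same in both dogs. *GADD45G* was nearly a rod gene among the photoreceptors, with 3.95 and 2.71 in rods, 0.422 and 0.166 in cones and 0.422 and 0.237 in Müller glia (block, -2.93 ± 0.25, adjusted p = 4.73e-08).

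*ATF4*, the transcription factor of the integrated stress response, was lower in Müller glia than in rods with the block and close between the dogs. It stood at 9.01 in N350 and 8.39 in N354 in rods and 4.02 in N350 and 3.65 in N354 in Müller glia (-0.74 ± 0.18, adjusted p = 0.00226). *PPP1R15A*, the phosphatase subunit that ends that response, was the reverse, at 5.09 and 2.64 in Müller glia and 0.834 and 0.813 in rods, and passed both with and without the block (adjusted p = 9.03e-08 and 0.00814). Of the 5 genes of growth arrest and integrated stress, 2 were higher and 3 lower with the block (27.7% and 28.5% of all genes). Without it 2 were higher and 1 lower (8.06% and 5.18%).

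Of the 6 chaperones, 1 was higher in Müller glia than in rods with the block and 2 were lower. Beside them, 27.7% and 28.5% of all genes were higher and lower. None of the 6 passed without the block (8.06% and 5.18% of all genes). *HSP90AA1*, the inducible cytosolic HSP90, was at 45.2 in N350 and 14.6 in N354 in rods, 37.2 and 19.1 in cones and 15.05 and 5.89 in Müller glia (edgeR, block, -1.02 ± 0.20, adjusted p = 4.22e-04). *HSPH1*, a nucleotide exchange partner of HSP70, was lower too, at 0.845 and 0.878 in rods and 0.36 and 0.394 in Müller glia (-0.76 ± 0.19, adjusted p = 0.00338), and was highest in bipolar cells at 1.897 and 2.07. *HSPA8*, the constitutive HSP70, was at 3.02 and 12.98 in rods and 1.795 and 7.99 in Müller glia and did not pass (adjusted p = 0.209). *HSPA5*, the HSP70 of the endoplasmic reticulum, was called higher with the block (adjusted p = 0.0121), although its level was 8.96 and 3.01 in Müller glia against 4.64 and 3.26 in rods, and its ratio in N354 was 0.921 (95% interval 0.843 to 1.01). *CALR*, a lectin chaperone of the same compartment, and *DNAJB1*, an HSP40, did not pass (adjusted p = 0.0564 and 0.463). The 6 chaperones together stood in Müller glia at 0.543 and 0.574 of their rod level. *HSPA8* and *HSP90AA1* have near-identical copies elsewhere in mammalian genomes, and counting could split their reads, so these levels are uncertain.

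Free RNA limits how the low rod values can be read. Droplets carry RNA from lysed cells, and the Müller glia markers, which rods should lack, stood in rods at 5.19% of their Müller glia level in N350 and at 1.604% in N354. In rods, 7 of the 36 genes in N350 and 5 in N354 were at or below that percentage of their own Müller glia level, *BHLHE40*, *KLF9* and *ZFP36L1* in both dogs. Rod values at or below that percentage cannot be told apart from free RNA and are not taken as expression in rods. At 2 times the percentage the counts were 14 in N350, *FOS* among them, and 10 in N354. *FOS* in rods was at 10.2% and 5.47% of its Müller glia level, *EGR1* at 16.4% and 20.7% and *JUND* at 15.5% and 30.3%, above the marker percentage in each dog. The same markers set the gates, which kept cells rich in them out of the rods and so held that percentage down. A value above it therefore does not separate expression in rods from free RNA. The rods' median mitochondrial share of UMIs was 5.32% and 6.16%, against 6.31% and 9.98% in Müller glia. The part of free RNA and of cell quality in the class differences was not tested.

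Among neurons, the list was lower in cones, bipolar cells and amacrine cells than in rods. The summed ratio to rods was 0.657 in N350 and 0.913 in N354 for cones, 0.65 in N350 and 0.71 in N354 for bipolar cells and 0.682 in N350 and 0.776 in N354 for amacrine cells. In cones, 22 of the 36 genes had a lower level than in rods in both dogs and 3 a higher one. In bipolar cells 19 were lower and 8 higher, and in amacrine cells 16 were lower and 7 higher. These directions were not counted over all genes. Without the block edgeR called none of the 36 in cones, where 4 had an unadjusted p under 0.05. It called 0.691% and 0.337% of all genes higher and lower. DESeq2 without the block called 0 of the 36 higher and 1 lower, and 438 higher and 131 lower of all 11865 genes. With the block edgeR called 1 higher in cones and 12 lower (8.55% and 9.73% of all genes).

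In bipolar cells 0 were higher and 2 lower without the block (2.73% and 2.14%) and 3 and 15 with it (13.5% and 15.9%). In amacrine cells 0 and 3 passed (6.12% and 5.3%), and 3 and 15 with the block (23.7% and 23.1%), or 3 and 9 when the block was combined with UMI totals (28.7% and 16%). *SGK1* was called lower than in rods in each of the 3 classes with the block, at 0.837 and 0.136 in cones, 0.781 and 0.195 in bipolar cells and 0.24 and 0.0515 in amacrine cells. *FOS* was called lower with the block in cones and bipolar cells, at 5.44 and 0.998 and at 3.39 and 0.487. It was not called in amacrine cells, which held 12.3 and 2.73 (edgeR, block, adjusted p = 0.91). Müller glia held *FOS* at 113 in N350 and 31.7 in N354. The Müller glia markers stood at 6.33 and 14.9 in amacrine cells, against 118 and 159.7 in Müller glia. Relative to Müller glia, amacrine *FOS* was above the markers in N350 but below them in N354. The amacrine *FOS* value of N354 therefore cannot be told apart from free RNA and is not taken as expression. These markers also set the gates, so standing above them does not separate the N350 value from free RNA. *KLF6* was called higher than in rods in each of the 3 classes with the block, at 0.901 and 0.363 in cones, 1.15 and 0.891 in bipolar cells and 0.569 and 0.618 in amacrine cells. *BTG1* and *HSPH1* were the other 2 genes higher in bipolar cells. The median mitochondrial share was 7.64% and 11.96% in cones, 12.6% and 17.1% in bipolar cells and 5.83% and 8.53% in amacrine cells, above that of rods, and its part was not tested.

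Astrocytes carried the early response genes at levels near those of Müller glia, and *KLF6* was the clearest exception. Over Müller glia their sum had a ratio of 1.12 in N350 and of 1.25 in N354. *FOS* reached 141 in N350 and 40.8 in N354, *EGR1* 28.3 and 3.82, *ZFP36* 33.6 and 5.39 and *BTG2* 22.8 and 6.19. Against rods, 6 of the 36 were higher and 3 lower without the block (8.18% and 6.7% of all genes) and 24 and 9 with it (21.7% and 22.8%). Astrocytes were the highest of the 6 tested classes for 13 genes in both dogs, Müller glia for 5, rods for 5, bipolar cells for 2 and cones for 1. The other 10 genes did not share a highest class between the dogs. *KLF4* is among these 10 only because it had no UMI in the tested classes of N354.

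*KLF6* encodes a Krüppel-like factor induced by injury. It stood at 16.8 in N350 and 12.4 in N354 in astrocytes and at 0.475 and 0.483 in Müller glia, 35.4 and 25.6 times as high. *KLF6* was the only gene of the 36 that edgeR called between astrocytes and Müller glia without the block (log2 difference 4.34 ± 0.67 (SE), adjusted p = 0.0291, with 0.396% and 0.523% of all genes called higher and lower), and it was called with the block as well (log2 difference 4.30 ± 0.32 (SE), adjusted p = 1.26e-07). With the block 3 genes were higher in astrocytes and 10 lower (6.9% and 10.2% of all genes). With UMI totals in place of TMM that split turned, to 9 higher and 2 lower (17.5% and 4.62%). With DESeq2 and the block, 1 was higher and 4 were lower (5.33% and 6.09%). The median of all genes moved by 0.56 between TMM and UMI totals. *NR4A1* and *GADD45G* were called lower in astrocytes under TMM and under UMI totals, *NR4A1* at 5.598 and 1.09 in astrocytes against 16.4 and 5.55 in Müller glia. *GADD45B*, at 11.8 and 7.12 against 25.6 and 13.2, was called lower under TMM but not under UMI totals.

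**Figure D3:**
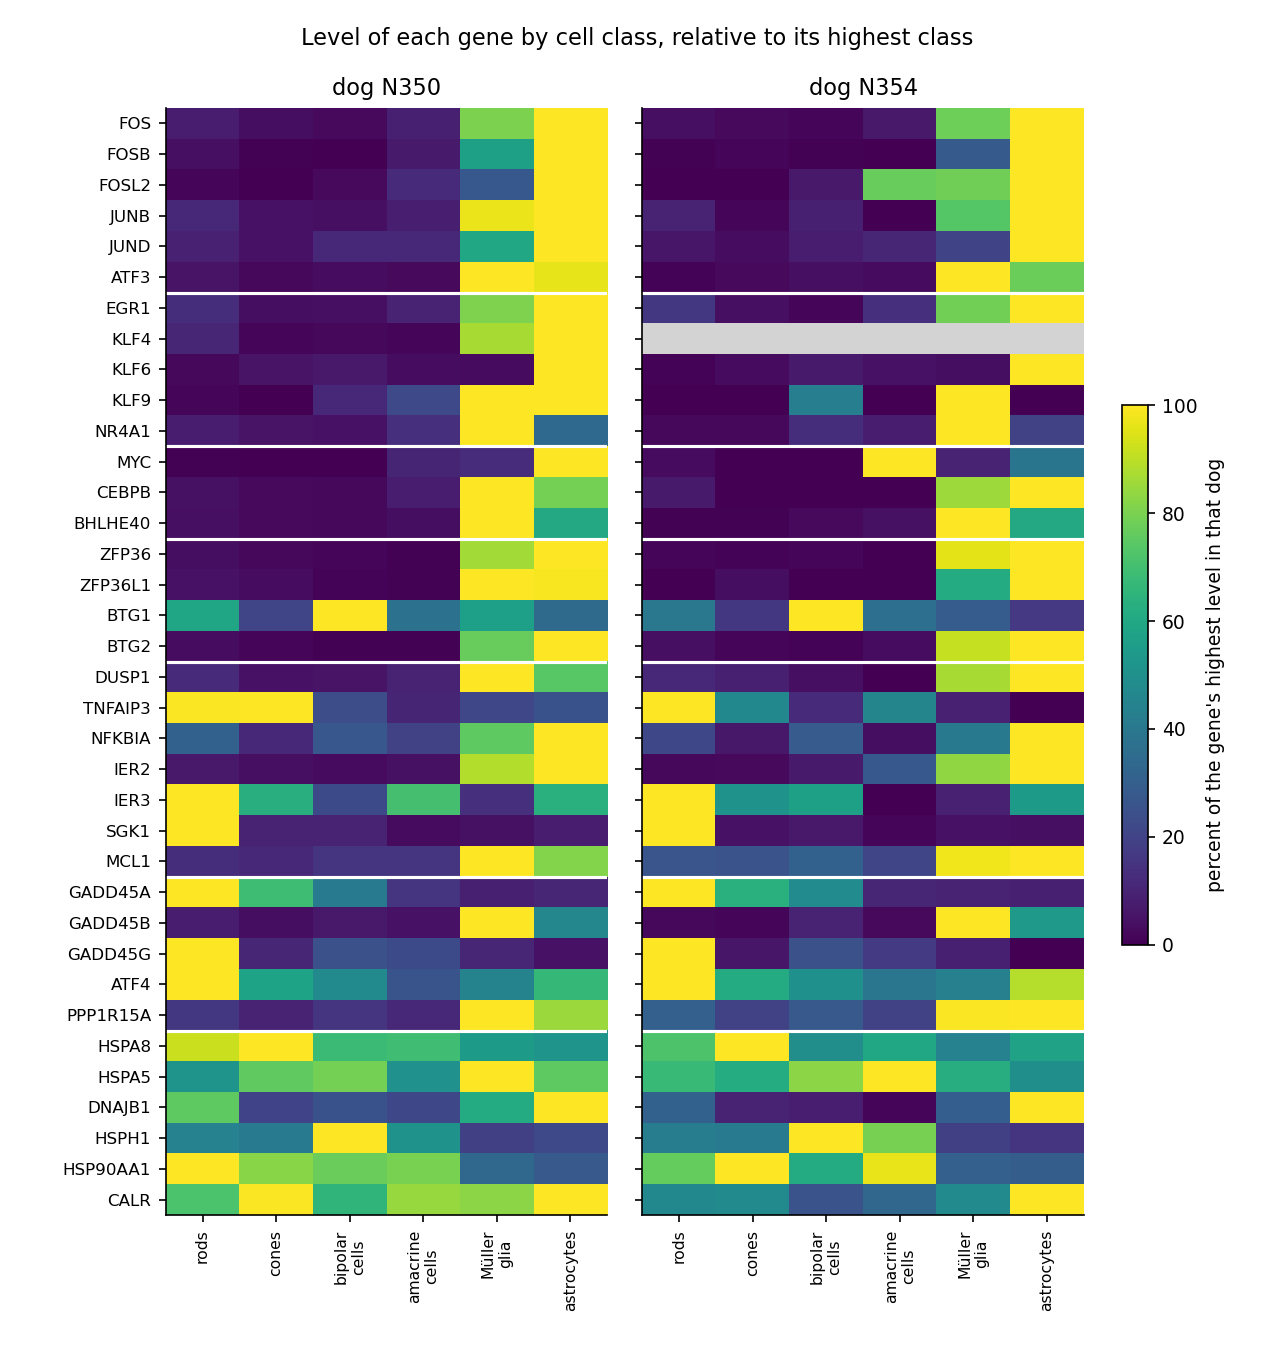
Level of each of the 36 genes in the 6 tested classes of N350 and N354, as a percent of the gene's highest level in UMIs per 10000 among those classes of that dog, with genes in rows grouped by role and grey where no UMI was counted (KLF4 in N354). The bright cells of the upper groups lie in the Müller glia and astrocyte columns, KLF6 is bright in astrocytes alone, and SGK1, GADD45A and GADD45G are bright in rods.

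Horizontal cells, microglia and vascular cells were too few in 1 or both dogs for a test, with 88 and 11, 13 and 5, and 28 and 4 cells, and ganglion cells with 17 and 1 are not described. Horizontal cells had a low sum of the list, 58.4 in N350 and 29.1 in N354. Vascular cells had a high one, 457 in N350 and 228 in N354, and *GADD45A* was at 25.1 and 37.5 in them. *KLF4*, an endothelial flow-response factor, was at 12.1 and 1.03 in vascular cells, and its relative *KLF2*, named in N350 only, was at 37.1 there against 0.055 in Müller glia. Microglia, the resident macrophages, held *BTG1* at 64.7 and 4.75 and *FOS* at 3.99 and 12.3, so *BTG1* was above *FOS* in N350 and below it in N354.

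The sum differed between depth bins of the Müller glia, although single cells of the bins overlapped. The cells of each dog were ranked by their UMIs of genes outside the list, so that the list did not set its own bins, and cut into 3 bins of equal size. The shallow, middle and deep bins summed to 294, 455 and 439 in N350 and to 69.1, 103 and 109.9 in N354. The step lay between the shallow bin and the others in both dogs. Cell by cell, the median was 228 in shallow and 440 in deep cells of N350, and 42.5 and 103 in N354. The upper decile of cells began at 636 in the shallow and 588 in the deep bin of N350, and at 162 and 176 in N354. Shallow Müller glia with a high sum thus occurred in both dogs. Deep over shallow cells the ratio was 1.49 in N350 and 1.59 in N354, a mean log2 of 0.62 ± 0.06 (SD, n = 2 dogs). In rods the same ratio was 1.01 in N350 and 1.099 in N354, but the groups behind it went apart in the dogs. The AP-1 sum in rods had deep over shallow ratios of 0.806 in N350 and 2.004 in N354, and the zinc finger and nuclear receptor factors 0.925 and 2.57. *FOS* in rods had 0.808 and 2.19 and *EGR1* 1.16 and 3.03, so in N354 they went up with depth in rods as well as in Müller glia. The gate asks for 15 marker UMIs whatever the total, so a shallow cell needed a larger share of markers to enter. Median totals of the bins ran from 3347 to 12401 UMIs in N350 and from 2826.5 to 10421 in N354.

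In Müller glia the sum of every role group but the chaperones had a deep over shallow ratio of 1.48 or more in both dogs, although single members went the other way. *FOS* stood at 75.7, 122 and 118 in the shallow, middle and deep bins of N350 and at 18.4, 30.9 and 35.6 in those of N354. *BTG2* stood at 10.1, 18.4 and 18.8 in N350 and at 2.74, 5.900 and 6.22 in N354. The deep over shallow ratio of the AP-1 sum was 1.53 and 1.92, and that of the RNA decay group 1.59 and 2.02. For growth arrest and integrated stress it was 1.53 and 1.52. For the chaperones together it was 1.103 and 1.04, although *HSPA5* alone had 1.58 in N350 and 0.775 in N354. *SGK1* stood at 0.63, 0.417 and 0.295 in N350 and 0.147, 0.153 and 0.119 in N354. Further members were lower in deep cells in N350, N354 or both. *TNFAIP3* had ratios of 0.75 in N350 and 0.769 in N354, and *BTG1* 1.23 and 0.592. *KLF4* had 0.832 in N350. In the growth arrest group *GADD45A* had 0.766 and 1.47, *GADD45G* 0.934 and 2.36 and *ATF4* 0.927 and 1.08. In the same group *GADD45B* had 1.76 and 1.64 and *PPP1R15A* 1.496 and 1.76.

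**Figure D4:**
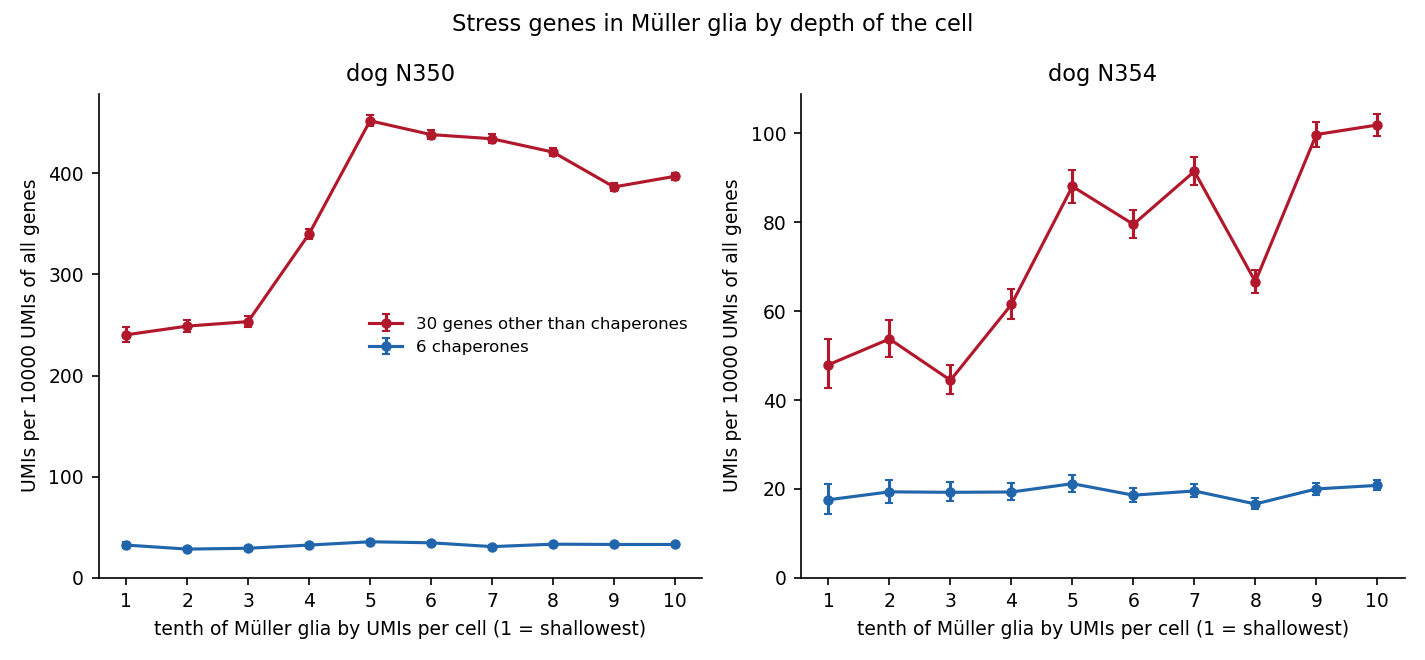
Summed level of the 6 chaperones and of the 30 other genes, in UMIs per 10000, in 10 bins of the Müller glia of each dog ranked by UMIs of genes outside the list, with bin 1 the shallowest and panels that have different vertical axes. Bars are exact Poisson 95% intervals, and the chaperone line stays between 28.4 and 35.7 in N350 and between 16.6 and 21.2 in N354 while the line of the 30 other genes runs between 240.3 in bin 1 and 452 in bin 5 of N350, with 397 in bin 10, and between 44.5 in bin 3 and 102 in bin 10 of N354, with 66.6 in bin 8.

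With the dog as a block, 16 of the 36 genes were higher in deep than in shallow Müller glia and 1, *SGK1*, was lower, against 0.791% and 0.81% of all genes tested. *BTG2* was among them (edgeR, block, log2 difference 1.05 ± 0.16 (SE), adjusted p = 2.87e-08), as were *NFKBIA*, *FOSB*, *CEBPB*, *BHLHE40*, *ZFP36* and *FOS*, with log2 differences of 1.10, 1.14, 1.01, 0.92, 0.88 and 0.85. No chaperone passed. DESeq2 with the block called 10 higher and 0 lower, against 0.145% and 0.125% of all genes. Without the block edgeR called 0 of the 36 and 0 of all 10366 genes, with 0 and 46 at an unadjusted p under 0.05. DESeq2 without it also called 0 of the 36 and 0 of all genes. In rods, edgeR with the block called 0 of the 36 and 0 of all 11236 genes, with 6 and 327 at an unadjusted p under 0.05. DESeq2 with the block called 0 of the 36 and 3 of all genes, with 3 and 116 at that level. The difference between Müller glia and rods in the depth effect was itself tested with the block. In edgeR 0 of the 36 and 0 of all 11236 genes passed, with 14 and 603 at an unadjusted p under 0.05. In DESeq2 0 of the 36 and 1 of all genes passed, with 7 and 233 at that level. So few genes passed at all that 0 of the 36 is not particular to the list. The depth effect is therefore not shown to differ between the 2 classes gene by gene. The rod test and the test of the difference came from a joint fit of rods and Müller glia. The Müller glia test came from a fit of Müller glia alone. The numbers of genes called in Müller glia and in rods are thus not a like comparison.

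Quality moved with depth. The shallow bin had a median mitochondrial share of 8.17% in N350 and 10.6% in N354, against 6.12% and 9.81% in the deep bin. Rod markers fell from 23.3 to 10.4 and from 14.1 to 10.8 UMIs per 10000, while the Müller glia markers went from 104 to 121 and from 147 to 157. When only cells with at most 10% mitochondrial UMIs were kept, the mean log2 ratio of the sum fell to 0.29 and the genes called with the block to 2 higher and 1 lower, when 0.166% and 0.294% of all genes were called. With every marker threshold doubled, it fell to 0.23, and 5 were higher and 1 lower (0.221% and 0.0769% of all genes). The shallow and deep bins then summed to 414 and 431 in N350 and to 83.5 and 109.8 in N354, so most of the remaining split lay in N354. Rods in that setting had 119 and 132 in N350 and 57.9 and 64.7 in N354. Under the limit of 5% of UMIs on names starting with MT-, the mean log2 ratio of the Müller glia sum turned to -0.16. There edgeR with the block called 0 of the 36, with 1 at an unadjusted p under 0.05 (0.00998% and 0.0799% of all genes called higher and lower). That limit left 6 cells per bin in N354, where the sum was 204 in the shallow and 109.97 in the deep bin. It removed no Müller glia of N350, where the sum stayed at 294 and 439. The parts of cell quality and of rod RNA in the shallow cells were not tested further.

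Other genes of the same pathways, from lists that share no gene with the 36, gave a mixed picture in Müller glia over rods. These lists too were chosen with earlier results of these data known. Over all genes tested, 27.7% were higher and 28.5% lower with the block, and 8.06% and 5.18% without it. Of 30 further early response genes, 26 were tested, and 17 were higher and 4 lower with the block, 2 and 0 without it. The 2 were *FOSL1*, another AP-1 subunit, and *TRIB1*, a pseudokinase, with log2 differences of 7.01 and 4.99 in the fit with the block. *CCN1* and *RHOB*, immediate early genes of matrix and cytoskeleton, were called with the block only, with log2 differences of 6.01 and 5.29. *NR4A3* and *EGR2*, paralogs of *NR4A1* and *EGR1*, were called with the block only as well, with 5.43 and 4.56. Those that were lower with the block were *DUSP2* and *DUSP5*, further MAP kinase phosphatases, with -4.11 and -2.47, *RGS2*, a G protein brake, with -2.80, and *CITED2*, a CBP/p300 partner, with -3.10. Of 15 heat shock genes, 9 were tested, and 3 were higher and 3 lower with the block, 1 and 2 without it. Of 15 genes of endoplasmic reticulum and integrated stress, 9 were higher and 1 lower with the block and 1 and 0 without it, and of 5 tested oxidative stress genes 3 and 1 with the block and none without it, when 2 had an unadjusted p under 0.05. *NQO1*, a quinone reductase, had a log2 difference of 4.45 and was called with the block only.

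Levels differed between the dogs, and by different factors for different genes. *JUNB*, *JUND*, *IER2*, *ZFP36L1* and *CEBPB* were at 34.8, 30.98, 22.1, 21.1 and 2.17 UMIs per 10000 in Müller glia of N350 but below 1 in each case in N354. *GADD45A* was close in the same cells, at 0.736 and 0.881 in N350 and N354, as were *MCL1* at 1.97 and 1.45 and *ATF4* at 4.02 and 3.65. *HSPA8* and *FOSB* were higher in N354, *HSPA8* at 1.795 and 7.99 and *FOSB* at 0.492 and 1.19. With 1 dog per annotation, dog, library and annotation cannot be told apart, and no test was made. *JUN*, the main partner of FOS, and *CEBPD* were named in N350 only. *JUN* was at 24.7 in Müller glia, 32.99 in astrocytes and 2.004 in rods, and *CEBPD*, an acute phase factor, at 14.5, 8.49 and 0.757.

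**Figure D5:**
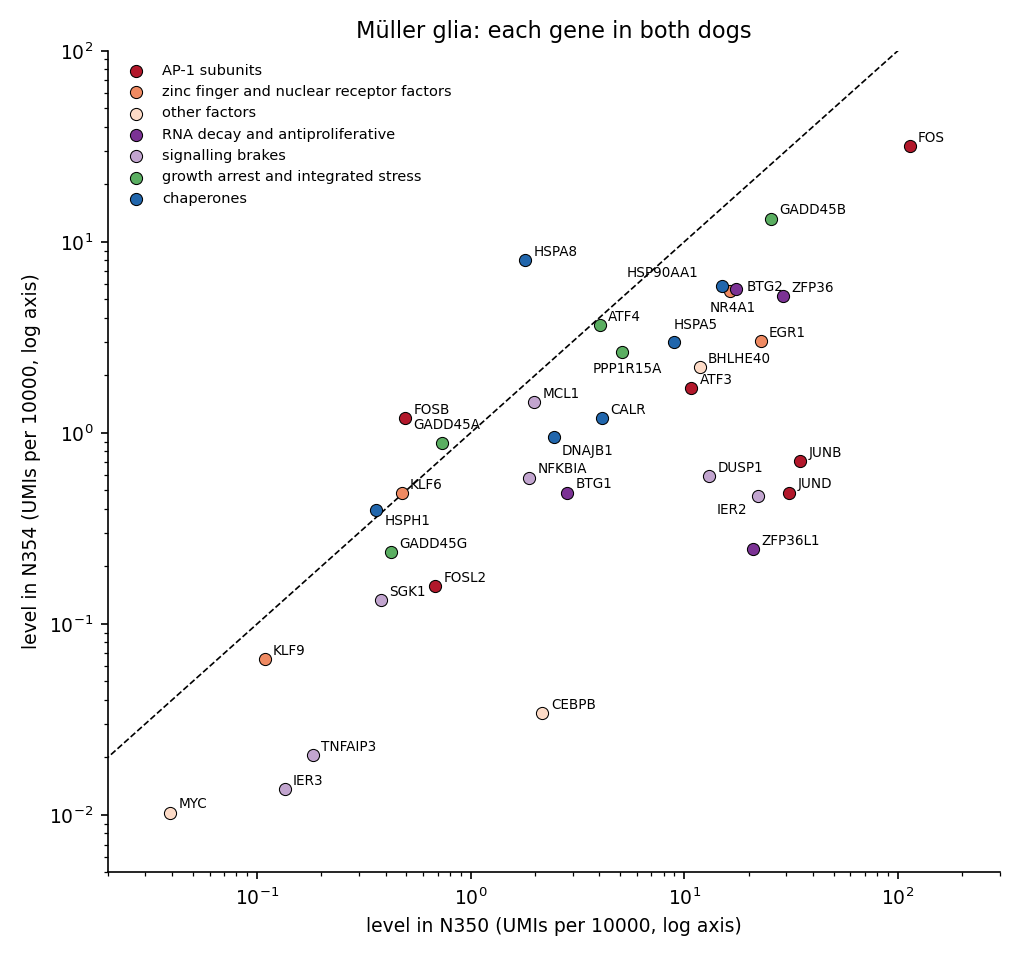
Level of each of the 36 genes except KLF4, which had no UMI in these cells of N354, in Müller glia of N354 against that in Müller glia of N350, in UMIs per 10000 on log axes, with the line of equal levels. FOS, GADD45B and ATF4 lie nearer to the line than JUNB, JUND, IER2 and ZFP36L1, and HSPA8 and FOSB lie on its N354 side.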

How the data were processed

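Single cells of the neuroretina of 2 dogs, N350 (replicate 1) and N354 (replicate 2), were measured with 1 library each. The authors aligned the reads with Cell Ranger (version 6.0.2 per the file headers) to the canFam6 genome, and deposited their UMI counts for each gene in each called cell without any normalization. UMI counts of the 3′ end count molecules, so levels need no correction for length. The gene names differ between the dogs, with 15224 in both. Per the methods, cells over 5% mitochondrial content were left out by the authors, but only 1 gene name of N350 starts with MT-, against 12 in N354, and that limit would leave 8900 and 1369 cells. It was an alternative here, beside at most 10% of UMIs on the 13 mitochondrial genes. The main values use no mitochondrial limit. Under the MT- name limit 18 of the 442 Müller glia of N354 would remain. Most cells behind the main N354 Müller glia values are thus above that limit.

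Cells with at least 200 genes (8895 and 4387) were gated on raw UMIs of marker lists, for example 15 UMIs on 3 different Müller glia markers, 15 on 3 for cones, 10 on 3 for bipolar cells, 8 on 3 for amacrine cells, 8 on 2 for astrocytes and 5 on 3 with at least 0.5% of UMIs for rods, and cells passing 2 or more gates other than the rod gate were left out. Scrublet's own threshold marked 0 and 2 cells, under 0.5% of cells, so it had not worked, and the 4% of cells with the highest scores were left out as an alternative. UMIs were summed per dog and class and tested with edgeR 4.0.16 (TMM, quasi-likelihood, Benjamini-Hochberg over all genes with at least 10 UMIs), without a dog term as the main design and with the dog as a block as an alternative. The dogs pair the sums because each animal gave every class, and over 6 classes and 11865 genes the correlations of same-dog deviations ran from 0.567 to 0.812. DESeq2 1.42.0, no low-count filter and doubled gates were other alternatives, and UMI totals and the combinations with the block were added after seeing the data. Tests were checked on simulated data. An adjusted p under 0.05 was called. Intervals are exact and cover counting error only. Without the block, p-values rest on the spread between the 2 dogs within classes or bins. With the block, the general difference between the dogs is taken out first. Those p-values rest on how class or bin differences vary between the 2 dogs, pooled over the classes or bins of a fit, with information shared across genes. In the depth fit of Müller glia alone, which had few sums, they rest mostly on the information shared across genes. The SE given with edgeR is the size of the log2 difference divided by the square root of the test's F statistic.

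In each role group the 3 members with the highest mean level, the members called against the main direction and those at 0 UMIs in a dog are given in full. The members, lists and gates were chosen with earlier results of these data known.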

Additional observations from a re-analysis of the deposited data

Results flagged for a closer look

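The sums of the RNA decay genes and of the signalling brake group were higher in deep than in shallow Müller glia. In rods the deep over shallow ratios of both sums were below 1 in both dogs, some of them close to 1. No counting interval of these ratios was computed. Deep over shallow cells, the summed ratio of *ZFP36*, *ZFP36L1*, *BTG1* and *BTG2* was 1.59 in N350 and 2.02 in N354 in Müller glia, and 0.745 and 0.867 in rods. For the 7 genes of the signalling brake group it was 1.48 and 1.54 in Müller glia. In rods it was 0.96 in N350, near no change, and 0.802 in N354. The difference between the classes in these sums was not tested. Gene by gene it was tested, and edgeR with the dog as a block called 0 of the 36 and 0 of all 11236 genes. At an unadjusted p under 0.05 there were 14 of the 36 and 603 of all genes. In rods *ZFP36* had ratios of 0.52 and 0.558, *BTG2* 0.637 and 1.04 and *BTG1* 1.12 and 0.876. *ZFP36*, *ZFP36L1* and *BTG2* in rods of N350 were at or below the marker percentage, where rod values cannot be told apart from free RNA. The Müller glia markers in rods also fell from shallow to deep cells, from 9.41 to 4.99 in N350 and from 3.05 to 2.17 in N354. The part of free RNA was not tested.

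Cells outside the comparisons also held the list. Cells that passed more than 1 gate summed to 239.8 UMIs per 10000 in N350 and 86.9 in N354, and cells of no gate to 134 and 41.9. In Müller glia of N350, the genes not named in N354 were at 24.7 for *JUN*, 14.5 for *CEBPD*, 0.055 for *KLF2* and 0.00723 for *SOCS3*.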

How the results depend on the processing

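The count of genes called among the 36 depended on the pairing most. With the dog as a block it went from 7 to 32 in Müller glia over rods, from 16 to 32 in Müller glia over the mean of the neurons, from 0 to 13 in cones, 2 to 18 in bipolar cells, 3 to 18 in amacrine cells and 9 to 33 in astrocytes over rods, from 1 to 13 in astrocytes over Müller glia and from 0 to 17 in deep over shallow Müller glia, and it stayed at 0 in rods by depth and in the difference between the classes. The count over all genes rose as well. Of 11865 genes it went from 1571 to 6659 in Müller glia over rods and from 1816 to 6010 over the mean of the neurons. Over rods it went from 122 to 2169 in cones, 578 to 3485 in bipolar cells, 1355 to 5553 in amacrine cells and 1765 to 5278 in astrocytes. In astrocytes over Müller glia it went from 109 to 2026, and in deep over shallow Müller glia from 0 to 166 of 10366. In rods by depth and in the difference between the classes it stayed at 0 of 11236. DESeq2 without the block called 17 of the 36 in Müller glia over rods, 1 in cones, 5 in bipolar cells and 17 in astrocytes over rods. Over all 11865 genes it called 2660, 569, 1273 and 2439 in these comparisons. In bipolar cells over rods without the block, the count was 1 with no low-count filter, 1 without the highest Scrublet scores, 1 with UMI totals, 0 with at most 10% mitochondrial UMIs and 0 with doubled gates. Over all genes these settings called 555 of 13436, 725 of 11816, 613 of 11865, 164 of 11434 and 595 of 11610. Under the MT- name limit, 4 of 35 members were called in astrocytes over rods, against 450 of 10551 genes. With the block, astrocytes over Müller glia gave 5 in DESeq2, and deep over shallow Müller glia gave 10 in DESeq2, 3 with at most 10% mitochondrial UMIs, 6 with doubled gates and 0 under the MT- name limit, which leaves fewer cells. Over all genes the first gave 1355 of 11865. The others gave 28 of 10366, 47 of 10212, 31 of 10401 and 9 of 10018. With UMI totals and no block, *BTG1* and *DNAJB1* turned to -0.11 and -0.20 (log2), and neither was called.

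The mean log2 ratio of the sum in bipolar cells over rods was -0.40 with UMIs of shared names as the denominator and -0.36 with at most 10% mitochondrial UMIs. In deep over shallow Müller glia it was 0.29 with that limit, 0.23 with doubled gates and turned to -0.16 under the MT- name limit. The MT- name limit left few Müller glia in every bin of N354 and removed none in N350. The cause of the other shifts was not tested. Leaving out either dog gave the other dog's value, a log2 ratio of 0.71 to 1.68 for Müller glia over rods, 0.17 to 0.32 for astrocytes over Müller glia, -0.61 to -0.13 for cones, -0.62 to -0.49 for bipolar cells and -0.55 to -0.37 for amacrine cells over rods, 0.58 to 0.67 for deep over shallow Müller glia and 0.02 to 0.14 for rods. The tests could not be run with 1 dog, since no residual spread among dogs remains, and comparisons between classes were not tested where a class had under 20 cells in a dog, which under the MT- name limit includes Müller glia (18 cells in N354). The depth test had no such minimum and rests there on 6 cells per bin in N354.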
